A study of Mus musculus with 8 samples.

Results

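The genes of glucose transport, glycolysis, the pyruvate dehydrogenase step and the pentose phosphate pathway were followed in MT-ret melanoma tissue after blockade of Ang2. Of 39 listed genes, 36 had a probe set whose annotation names that gene alone, out of 22840 such genes on the array. Aldoa, Eno1 and Tkt were not analysed because each appears only on probe sets that name several genes. Pyruvate kinase, listed as Pkm2, carries the symbol Pkm in the table and is called Pkm here.

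Glycolysis splits glucose into pyruvate in the cytosol and yields ATP without oxygen. Under low oxygen, the transcription factor HIF raises glucose transporters, glycolytic enzymes, lactate dehydrogenase A and the kinases that shut pyruvate dehydrogenase, so that pyruvate is turned to lactate instead of entering mitochondria. Several steps are served by paralogous enzymes of which some are known to be induced by low oxygen and others are kept for muscle, liver or brain, and the pentose phosphate pathway branches off to supply NADPH and ribose.

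The MT-ret model is a mouse strain with a Ret transgene in which melanoma arises, and pieces of such a tumour had been implanted ventrally, on the flank, into C57BL/6N hosts. From day 7 after implantation until the primary tumour was removed, 4 of the tumours analysed grew under an Ang2-blocking antibody (anti-Ang2) and 4 under its isotype control (IgG). Ang2 is a ligand of the endothelial receptor Tie2. The labels do not give the age of the mice, the antibody dose or the number of donor tumours behind the fragments, and p-values measure the spread between these tumours only.

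Each tumour was read on 1 whole-transcript array, on which every probe set gives a normalized intensity, used below on the log2 scale. A difference of 1 on this scale is a fold of 2, and all differences are anti-Ang2 minus IgG. The medians of the arrays lay between 6.09 and 6.15. All 10 melanocyte marker genes were above the median gene, and their mean lay between 10.95 and 11.61 in all 8 tumours, which is the labelled tumour type. Whole tumour RNA was measured, so that fewer cells of a type and less RNA per cell cannot be told apart.

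Promoters are printed for Slc2a1, Slc16a1 and Pfkp, the 3 members with the smallest p-values. Those of the lactate dehydrogenase pair Ldha and Ldhb are added. Each line runs from 250 bases before to 50 bases after the gene's start, 5′ to 3′ on the gene's strand, from RefSeq on build GRCm38.p6. Capitals mark ACGTG and GCGTG, the core of the hypoxia response element, and their reverse complements CACGT and CACGC. The windows are chr4:119108495-119108794 on the plus strand for Slc2a1, chr3:104638414-104638713 on the plus strand for Slc16a1, chr13:6648722-6649021 on the minus strand for Pfkp, chr7:46845554-46845853 on the plus strand for Ldha and chr6:142507908-142508207 on the minus strand for Ldhb.
Slc2a1: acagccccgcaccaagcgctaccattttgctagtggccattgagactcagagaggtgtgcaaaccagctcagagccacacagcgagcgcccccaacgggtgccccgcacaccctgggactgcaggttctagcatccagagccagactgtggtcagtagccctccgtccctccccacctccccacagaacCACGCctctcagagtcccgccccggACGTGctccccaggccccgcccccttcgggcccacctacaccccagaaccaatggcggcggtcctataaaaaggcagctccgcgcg
Slc16a1: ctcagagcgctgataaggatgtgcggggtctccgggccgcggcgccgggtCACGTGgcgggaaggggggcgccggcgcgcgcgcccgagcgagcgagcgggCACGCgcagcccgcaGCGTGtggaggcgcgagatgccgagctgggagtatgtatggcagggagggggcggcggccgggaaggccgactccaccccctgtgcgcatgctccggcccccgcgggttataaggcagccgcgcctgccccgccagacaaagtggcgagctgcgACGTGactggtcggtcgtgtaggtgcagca
Pfkp: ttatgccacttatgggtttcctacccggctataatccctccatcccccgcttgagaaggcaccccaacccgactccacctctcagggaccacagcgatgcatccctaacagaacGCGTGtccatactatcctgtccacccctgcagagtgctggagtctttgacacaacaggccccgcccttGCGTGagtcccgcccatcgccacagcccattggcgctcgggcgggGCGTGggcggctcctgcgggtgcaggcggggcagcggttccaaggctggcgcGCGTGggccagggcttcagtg
Ldha: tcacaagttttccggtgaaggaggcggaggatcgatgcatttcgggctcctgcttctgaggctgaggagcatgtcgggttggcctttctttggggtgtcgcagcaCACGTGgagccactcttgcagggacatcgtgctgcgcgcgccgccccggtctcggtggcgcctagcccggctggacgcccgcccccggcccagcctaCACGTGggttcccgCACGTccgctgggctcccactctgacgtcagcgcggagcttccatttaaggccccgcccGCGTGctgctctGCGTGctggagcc
Ldhb: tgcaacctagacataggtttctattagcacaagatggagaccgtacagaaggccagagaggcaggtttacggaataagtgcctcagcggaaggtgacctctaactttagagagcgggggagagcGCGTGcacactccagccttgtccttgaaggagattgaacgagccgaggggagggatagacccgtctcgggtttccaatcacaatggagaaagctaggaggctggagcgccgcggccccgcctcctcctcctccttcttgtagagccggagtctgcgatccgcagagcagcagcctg

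Counted over both strands, the core matched 2 times in the Slc2a1 window, 5 in Slc16a1, 4 in Pfkp, 7 in Ldha and 1 in Ldhb. A CACGTG counts on each strand and therefore gives 2 overlapping matches. Of the 36 measured members, 33 had a window in the table (Slc2a3, Slc2a4 and Pdp1 did not match), and 26 of these (78.8%) held at least 1 match. Among the 16618 fitted genes with a window the share was 49.9%. With ACGTG alone the shares were 51.5% of members and 21.3% of fitted genes. Member windows were also richer in G and C, with a median of 62% against 56.3%, and the motif contains CG. For a gene with several windows the one listed at the top was taken, and a match describes letters and not a bound site.

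No member passed correction over all genes: with limma and Benjamini-Hochberg adjustment, the smallest adjusted p among the 36 was 0.473 (Slc16a1), and 0.0% of the 22840 genes had an adjusted p under 0.05. At an unadjusted p under 0.05, 8 members (22.2%) were higher in anti-Ang2 tumours, where 4.09% of all genes were, and 2 members (5.56%) were lower, where 3.0% of all genes were; 10 were called in either direction, where 7.09% of all genes were. The 8 were Slc16a1, Slc2a1, Pfkp, Aldoc, Hk2, Pgam1, Pfkl and Pdk1, and the 2 were Ldhb and Taldo1. In all, 24 of 36 differences (66.7%) were above 0, against 53.5% of all genes, and the median difference was 0.09 against 0.01 for all genes. The 4 anti-Ang2 values lay wholly above the 4 IgG values for 3 members (8.33%), Slc2a1, Slc16a1 and Pkm, where 2.28% of all genes did so, and wholly below for 0 members, where 1.46% did. The count of 8 became 4 without anti-Ang2 replicate 1, where 2.75% of all genes were called higher, and 4 without IgG replicate 1, where 4.07% were. It was 5 without anti-Ang2 replicate 3 (3.63% of all genes) and 5 without IgG replicate 2 (3.46%). With the skeletal muscle list as a covariate it was 3 (4.04% of all genes), and these were Slc16a1, Slc2a1 and Pfkp. Of the 10 members called, Slc2a1, Slc16a1, Pfkp, Aldoc and Ldhb had an unadjusted p under 0.05 in all 8 runs with 1 tumour left out, Taldo1 in 5, Hk2 and Pgam1 in 4, Pfkl in 3 and Pdk1 in 2. The count of 2 became 1 when replicate 1 (2.27% of all genes lower) or 4 (3.57%) of anti-Ang2 was left out and with that covariate (3.59%).

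**Figure D1:**
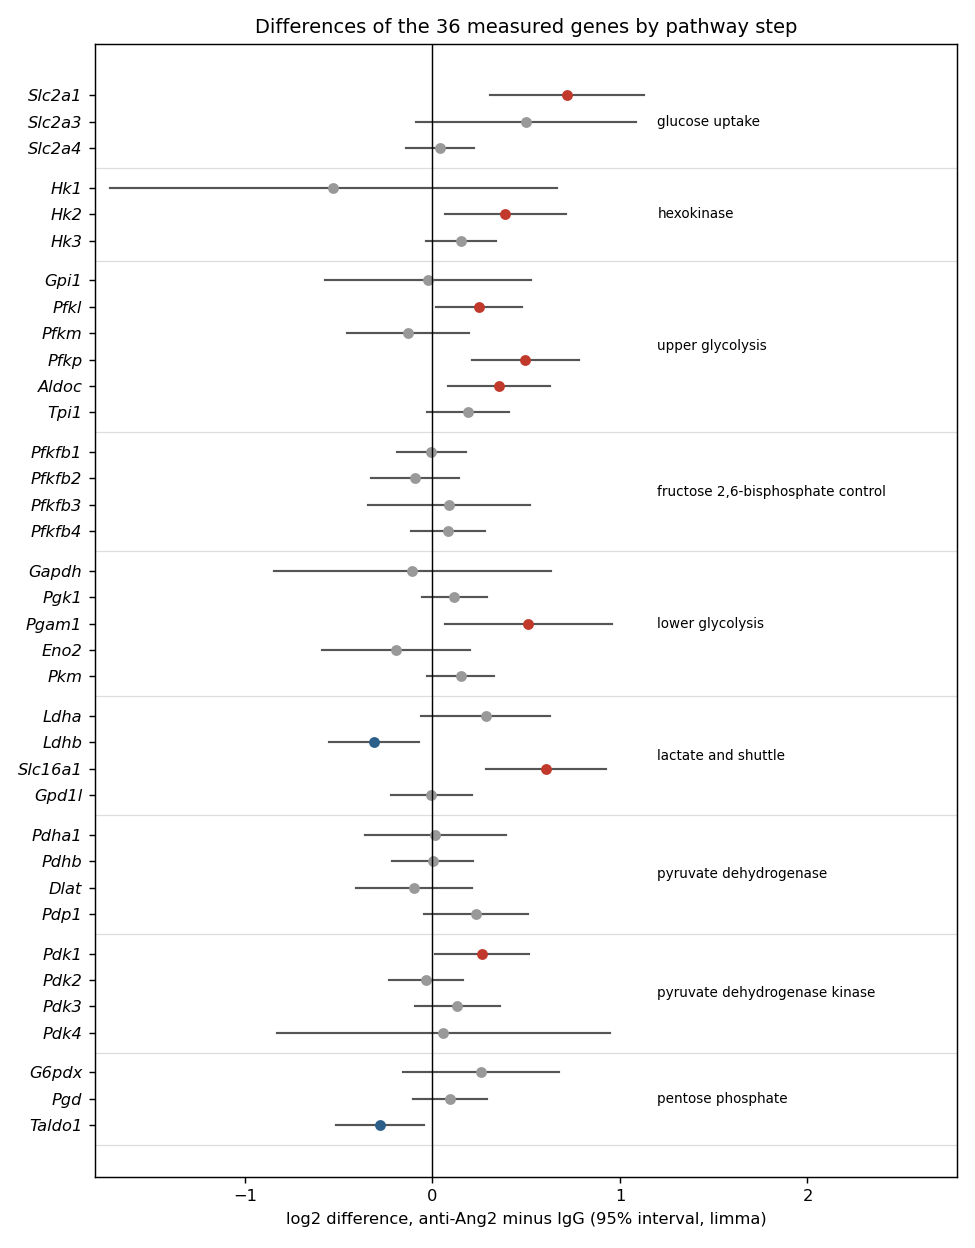
Log2 difference in intensity, anti-Ang2 minus IgG, for the 36 measured genes (points) with the 95% interval of the limma fit (lines), ordered by pathway step. Red and blue points are higher and lower at an unadjusted p under 0.05; the 8 red points run from 0.25 for Pfkl to 0.72 for Slc2a1, and none passed adjustment over all genes.

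Glucose uptake held the largest difference of the set. Slc2a1, the glucose transporter GLUT1, had log2 intensities of 12.22, 11.73, 11.93 and 11.67 in anti-Ang2 replicates 1 to 4 and 10.64, 11.13, 11.39 and 11.53 in IgG replicates 1 to 4. All anti-Ang2 tumours were above all IgG tumours, by 0.14 at the closest (11.67 against 11.53). The difference was 0.72 (SE 0.19, fold 1.64, interval 1.24 to 2.19; limma adjusted p = 0.546; probe set 17417844, chromosome 4). It was 0.54 without IgG replicate 1, the tumour with the lowest value, and 0.43 with the skeletal muscle list as a covariate. Slc2a3, the high-affinity transporter GLUT3, read 6.35, 6.42, 7.45 and 6.43 in anti-Ang2 and 5.54, 6.42, 6.53 and 6.15 in IgG tumours. Replicate 3 of anti-Ang2 stood alone at the top and IgG replicate 1 at the bottom, and the groups overlapped (difference 0.50, 95% interval -0.09 to 1.09). Slc2a4, the insulin-responsive transporter GLUT4 of muscle and fat, stayed between 6.00 and 6.20 in all 8 tumours, near the median gene at 6.10, with a difference of 0.04 (-0.14 to 0.22).

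Hexokinases trap glucose in the cell as its phosphate. Hk2, the form known to be induced in tumours, read 8.90, 8.75, 9.13 and 8.49 in anti-Ang2 and 8.20, 8.34, 8.50 and 8.69 in IgG tumours. The lowest anti-Ang2 tumour, replicate 4, lay below 2 of the IgG tumours, and the difference was 0.39 (SE 0.15, fold 1.31; limma adjusted p = 0.670). Hk1, the form of most tissues, had the widest spread of the set. It read 8.34, 7.49, 8.22 and 6.53 in anti-Ang2 and 6.52, 8.94, 8.13 and 9.09 in IgG tumours. Its within-group SD of 1.02 exceeded that of 99.9% of genes, with 1 tumour of each group near 6.5, and the difference of -0.53 had an interval of -1.72 to 0.66. Without IgG replicate 1 it was -1.08, past the unadjusted threshold, without IgG replicate 4 it was -0.22, and over all runs with 1 tumour left out it lay between -1.08 and -0.16. Hk3, the hexokinase of myeloid cells, differed by 0.15 (-0.04 to 0.34), with values of 5.91 to 5.97 in anti-Ang2 and 5.69 to 5.92 in IgG tumours. All were below the median gene at 6.10, and the lowest anti-Ang2 value (5.91) was that of replicate 1. In the neutrophil list 9 of 10 genes had a positive difference, and 8 of its 10 genes were below the median gene. Its means were 6.07, 5.69, 5.68 and 5.69 in anti-Ang2 replicates 1 to 4 and 5.55 to 5.64 in IgG tumours. The macrophage list, with 6 of 10 genes positive, ranged from 7.48 to 7.70 and from 7.34 to 7.91. The part of either in the value of Hk3 was not tested.

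Phosphofructokinase commits sugar to glycolysis, and its 3 subunit genes did not run together. Pfkp, the platelet-type subunit, read 11.75, 11.61, 11.68 and 11.29 in anti-Ang2 and 11.07, 10.81, 11.31 and 11.16 in IgG tumours. The groups met at a single point, where IgG replicate 3 stood just above anti-Ang2 replicate 4. The difference was 0.49 (SE 0.13, fold 1.41, interval 1.16 to 1.72; limma adjusted p = 0.546; probe set 17290324, chromosome 13). Pfkl, the liver-type subunit, read 10.68, 10.55, 10.64 and 10.39 against 10.31, 10.09, 10.46 and 10.40. Here too anti-Ang2 replicate 4 lay among the IgG tumours, and the difference was 0.25 (SE 0.10, fold 1.19; limma adjusted p = 0.697). Pfkm, the muscle subunit, read 7.59, 7.38, 7.94 and 7.56 against 7.96, 7.38, 7.82 and 7.85. The groups overlapped throughout (difference -0.13, interval -0.46 to 0.19).

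Among the other upper steps, Aldoc, the brain-type aldolase that cleaves the sugar bisphosphate, was above 3 of the 4 IgG tumours in every anti-Ang2 tumour. It read 9.34, 9.21, 8.98 and 8.96 against 8.73, 8.61, 9.06 and 8.67, a difference of 0.36 (SE 0.12, fold 1.28; limma adjusted p = 0.662). Tpi1, which interconverts the triose phosphates, was 11.67 to 11.84 in anti-Ang2 and 11.39 to 11.78 in IgG tumours (difference 0.19, interval -0.03 to 0.41). Gpi1, the isomerase after hexokinase, had 1 tumour far from the rest, IgG replicate 4 at 11.94 where the other 7 lay between 10.56 and 11.06. Its difference was -0.03 with that tumour and 0.28 without it, past the unadjusted threshold.

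The PFKFB enzymes make and remove the allosteric activator of phosphofructokinase, and their genes showed little difference. Pfkfb3, the hypoxia-induced form, read 7.83, 7.83, 8.74 and 8.03 in anti-Ang2 and 8.07, 7.72, 8.00 and 8.28 in IgG tumours. A single tumour, anti-Ang2 replicate 3, gave the difference of 0.09 its sign, which was -0.12 without it. Pfkfb4, also induced by hypoxia, lay between 6.35 and 6.65 in all tumours (0.08, interval -0.12 to 0.28), and Pfkfb2, the heart form, between 6.63 and 7.07 (-0.09, interval -0.33 to 0.14). Pfkfb1, the liver and muscle form, ranged from 5.89 to 6.12 (-0.01, interval -0.19 to 0.18).

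In lower glycolysis, differences were small for the brightest probe sets. Pgk1, phosphoglycerate kinase, lay between 12.25 and 12.51 in the 8 tumours and differed by 0.12 (SE 0.08). Pkm, pyruvate kinase, read 12.65, 12.61, 12.70 and 12.65 in anti-Ang2 and 12.44, 12.41, 12.60 and 12.55 in IgG tumours. The groups did not overlap, though the gap was 12.61 against 12.60, and the difference was 0.15 (SE 0.08, fold 1.11; limma adjusted p = 0.743). Pgam1, phosphoglycerate mutase, read 11.10, 10.89, 11.37 and 10.89 against 9.93, 10.51, 10.95 and 10.81. Its difference of 0.51 (SE 0.20; limma adjusted p = 0.689) was 0.31 without IgG replicate 1 and 0.14 with the skeletal muscle covariate. Eno2, the neuronal enolase, differed by -0.19 (interval -0.59 to 0.20), with anti-Ang2 replicate 4 lowest at 6.79. The Gapdh probe set read 8.99 in IgG replicate 1 and 7.16 to 7.93 in the other 7 tumours, a difference of -0.11 (interval -0.85 to 0.63) that was 0.31 without IgG replicate 1 and 0.41 with the skeletal muscle covariate.

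The probe sets of Pgam1, Gpi1 and Gapdh need care. Array numbers follow the genome: 99.3% of the 21917 probe sets with a chromosome carry the chromosome of most of their neighbours. That of Pgam1 (annotated to chromosome 19) sits among 17 neighbours of which 17 are on chromosome 3. That of Gpi1 (chromosome 7) has 17 of 18 neighbours on chromosome 8, and that of Gapdh (chromosome 6) has 10 of 11 on chromosome Y. Probe sequences were not used here, so which transcripts these 3 probe sets read, the gene or a copy elsewhere, was not tested. Without them 7 of 33 members were higher at an unadjusted p under 0.05, where 4.09% of all genes were, and 2 lower, where 3.0% were. The median difference stayed at 0.09. The probe set of Pdk1 (17548205) is numbered far from that of Pfkfb3 (17381630), also annotated to chromosome 2. Only 7 of its neighbours carry a chromosome, and 6 of these are on chromosome 2.

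At the lactate step Slc16a1 and Ldhb were called at an unadjusted p under 0.05, the former higher and the latter lower in anti-Ang2 tumours, and Ldha was not called. Slc16a1, the lactate and proton transporter MCT1, read 9.81, 9.59, 9.23 and 9.09 in anti-Ang2 and 8.92, 8.73, 8.82 and 8.82 in IgG tumours. All 4 anti-Ang2 tumours were above the IgG tumours, which lay within 8.73 to 8.92. The difference was 0.61 (SE 0.15, fold 1.52, interval 1.22 to 1.90; limma adjusted p = 0.473; probe set 17401335, chromosome 3), and it was 0.48 to 0.72 with any 1 tumour left out. Ldhb, the heart-type subunit that favours lactate use, read 8.46, 8.63, 8.78 and 8.88 in anti-Ang2 and 8.98, 8.99, 9.15 and 8.87 in IgG tumours. Only anti-Ang2 replicate 4 reached the lowest IgG tumour. The difference was -0.31 (SE 0.11, fold 0.806; limma adjusted p = 0.666; chromosome 6). Ldha, the hypoxia-induced subunit that favours lactate formation, read 7.27, 7.25, 7.46 and 7.45 against 6.62, 7.44, 7.00 and 7.23. Its groups overlapped, and the difference of 0.28 (SE 0.16) was 0.13 without IgG replicate 1. Gpd1l, a cytosolic glycerol phosphate dehydrogenase-like enzyme, lay between 6.95 and 7.23 in both groups (-0.01, interval -0.22 to 0.21).

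**Figure D2:**
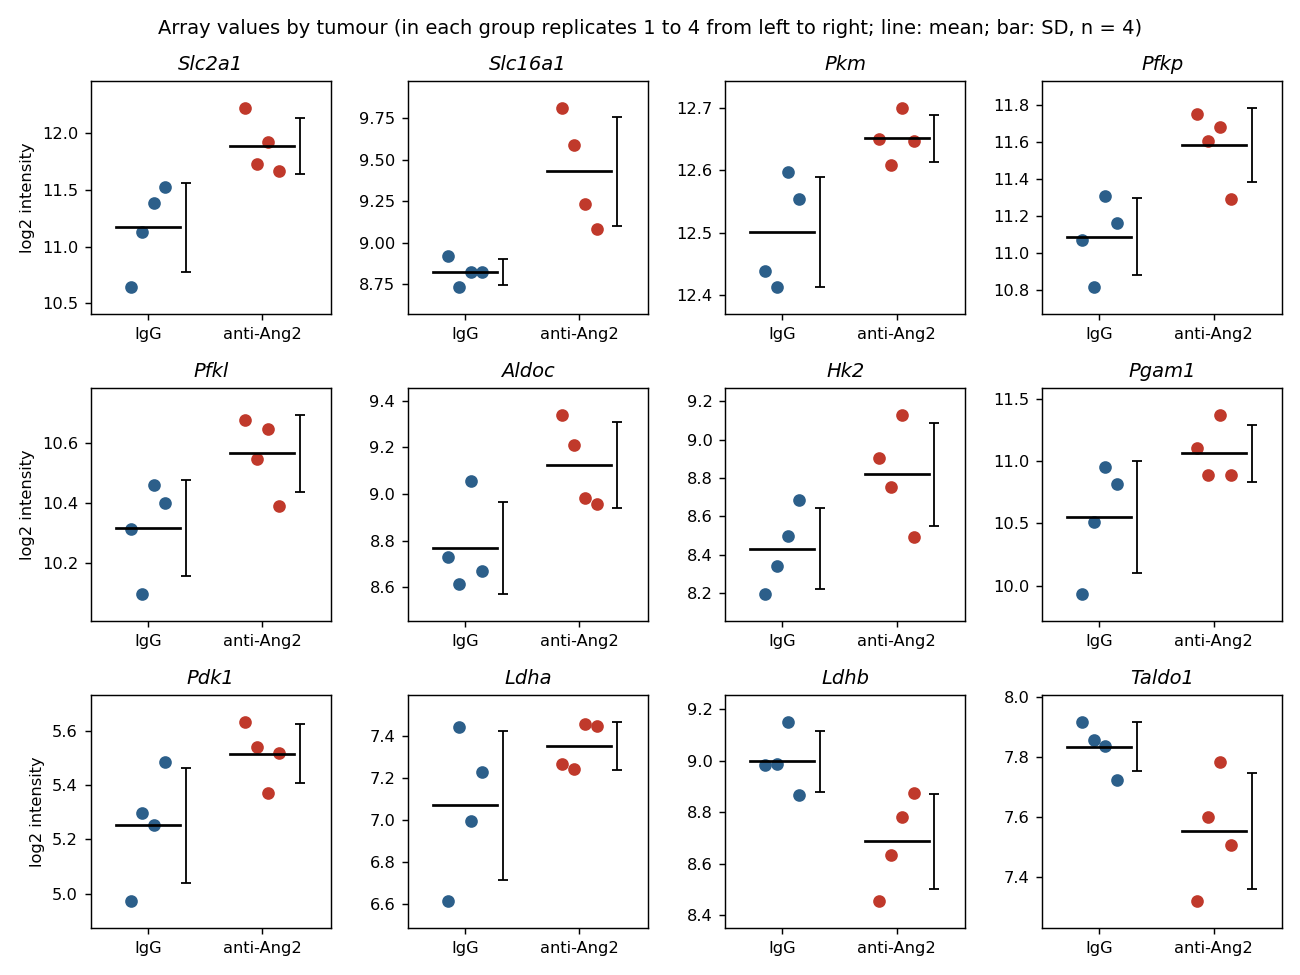
Log2 intensity of 12 genes in each tumour, IgG in blue and anti-Ang2 in red, with replicates 1 to 4 from left to right, group means as lines and the SD (n = 4) as bars; each panel has its own axis. Slc2a1, Slc16a1 and Pkm have no overlap between groups, and Ldhb and Taldo1 are the 2 that lie lower in anti-Ang2 tumours.

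Pyruvate dehydrogenase turns pyruvate into acetyl-CoA and is shut by the PDK kinases. Pdk1, the hypoxia-induced kinase, read 5.63, 5.54, 5.37 and 5.52 in anti-Ang2 and 4.97, 5.30, 5.25 and 5.49 in IgG tumours. These are dim values, below the median gene at 6.10, and the difference of 0.26 (SE 0.11; limma adjusted p = 0.701) was 0.17 without IgG replicate 1. Pdk2, the widely expressed kinase, read 7.78, 7.86, 7.78 and 7.59 against 7.72, 7.70, 7.85 and 7.87, a difference of -0.03 (interval -0.23 to 0.16). Pdk3 differed by 0.13 (interval -0.10 to 0.36): 7 tumours lay between 9.22 and 9.35 and IgG replicate 1 at 8.85.

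Pdk4, the kinase of fasting and fat use, read 7.84, 6.83, 6.32 and 6.14 in anti-Ang2 and 7.73, 6.55, 5.92 and 6.70 in IgG tumours. It was high in 1 tumour of each group, and the difference was 0.06 (interval -0.83 to 0.95). Those same 2 tumours, anti-Ang2 replicate 1 and IgG replicate 1, had the highest means of the adipocyte list, 6.40 and 6.63, where the other 6 ranged from 6.11 to 6.28. In that list 4 of 9 genes had a positive difference, and 6 of 9 genes, Adipoq and Lep among them, were below the median gene. Its part in the values of Pdk4 was not tested. The subunit genes of the complex had differences within their spread: Pdha1 by 0.02 (interval -0.36 to 0.39), Pdhb by 0.00 (-0.21 to 0.22) and Dlat by -0.10 (-0.41 to 0.21). In Pdha1 and Dlat IgG replicate 4 was the highest of the 8 tumours and IgG replicate 1 the lowest. Pdp1, the phosphatase that reopens the complex, differed by 0.23 (interval -0.04 to 0.51), with values of 7.23 to 7.81 in anti-Ang2 and 7.12 to 7.35 in IgG tumours.

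The pentose phosphate genes did not share a direction. G6pdx, which encodes the entry enzyme of the pathway, was 8.95 to 9.69 in anti-Ang2 and 8.62 to 9.33 in IgG tumours (difference 0.26, interval -0.16 to 0.67). Pgd, the next NADPH-forming enzyme, was 10.05 to 10.09 and 9.81 to 10.14 (0.09, interval -0.10 to 0.29). Taldo1, transaldolase of the non-oxidative branch, read 7.32, 7.60, 7.78 and 7.51 in anti-Ang2 and 7.92, 7.86, 7.84 and 7.72 in IgG tumours. Anti-Ang2 replicate 3 was the only one to reach the IgG range, and the difference was -0.28 (SE 0.11, fold 0.823; limma adjusted p = 0.677).

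A form known to be raised by low oxygen or in tumours was compared with its paralogue in the same tumour, for 9 pairs. On each array the log2 value of the paralogue was subtracted. Such a value shows unequal differences only, since levels of different probe sets cannot be set against each other. All 9 pair values were higher in anti-Ang2 tumours, but several share a gene (Slc2a4, Pfkm and Pfkfb2 each serve 2 pairs). Between groups the pair values did not overlap for Slc2a1 minus Slc2a4, Pfkp minus Pfkm and Ldha minus Ldhb. Each had a two-sided exact permutation p of 0.0286, the smallest that 70 assignments of 4 against 4 allow, and an adjusted p of 0.0857 over the 9 pairs by the same exact permutation test. That adjusted p can fall under 0.05 only if 6 pairs reach the smallest p.

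Ldha minus Ldhb was -1.19, -1.39, -1.32 and -1.43 in anti-Ang2 and -2.37, -1.54, -2.16 and -1.64 in IgG tumours, a difference of 0.60 (from -1.93 ± 0.40 to -1.33 ± 0.10; SD, n = 4). The anti-Ang2 tumours lay close together above a wider IgG range. Pfkp minus Pfkm was 4.16, 4.22, 3.74 and 3.74 against 3.11, 3.43, 3.49 and 3.32, a difference of 0.63. Slc2a1 minus Slc2a4 was 6.15, 5.56, 5.72 and 5.67 against 4.51, 5.05, 5.38 and 5.47, a difference of 0.67 that was 0.34 with the skeletal muscle covariate. Since Slc2a4 stayed near the median gene in all tumours, this value largely repeats the difference of Slc2a1 itself (0.72).

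The other 6 pairs overlapped between groups. Pfkl minus Pfkm differed by 0.38 (exact permutation adjusted p = 0.129) and Pdk1 minus Pdk2 by 0.30 (exact permutation adjusted p = 0.154). Hk2 minus Hk1 differed by 0.92, with a pooled SD of 0.84 (exact permutation adjusted p = 0.257). Slc2a3 minus Slc2a4 differed by 0.46 (exact permutation adjusted p = 0.354), and by 0.04 with the skeletal muscle covariate. Pfkfb4 minus Pfkfb2 and Pfkfb3 minus Pfkfb2 differed by 0.17 and 0.18 (exact permutation adjusted p = 0.331 and 0.486). A limma fit of the pair values gave lower adjusted p-values over the 9 pairs, 0.00734 for Pfkp minus Pfkm, 0.0201 for both Slc2a1 minus Slc2a4 and Ldha minus Ldhb, 0.0224 for Pfkl minus Pfkm and 0.0412 for Pdk1 minus Pdk2; its prior variance is that of single genes. With the skeletal muscle covariate in that limma fit, Pfkp minus Pfkm alone kept an adjusted p under 0.05 (0.0491).

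**Figure D3:**
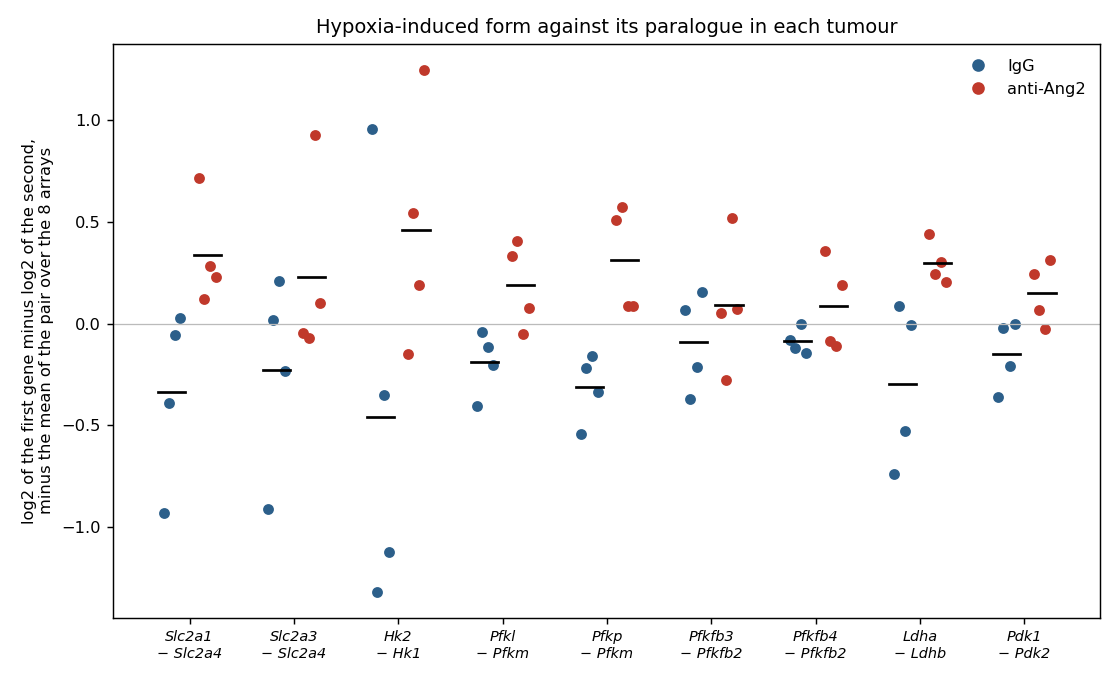
For 9 pairs, log2 of the form known to be raised by low oxygen or in tumours minus log2 of its paralogue in each tumour. Values are set relative to the mean of the pair over the 8 arrays, with IgG in blue, anti-Ang2 in red and group means as lines (n = 4). The groups are separate for Slc2a1 minus Slc2a4, Pfkp minus Pfkm and Ldha minus Ldhb, and Hk2 minus Hk1 has the widest spread.

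Across tumours the members did not vary evenly. IgG replicate 1 had the lowest value of the 8 tumours for 17 of the 36 members, and IgG replicate 2 for 9. Anti-Ang2 replicate 3 had the highest value for 13 members and anti-Ang2 replicate 1 for 10. Such counts were not made over all genes. They therefore cannot be called particular to these members. The skeletal muscle list, in which 15 of 16 genes had a negative difference, had means of 9.50, 8.00, 6.25 and 7.32 in IgG replicates 1 to 4 and 6.35, 7.47, 6.09 and 6.04 in anti-Ang2 replicates 1 to 4, and none of its 16 genes was below the median gene. IgG replicate 1 was thus the tumour with the most muscle signal and the lowest values of many members. With that list mean as a covariate, 4 of the 10 called members kept an unadjusted limma p under 0.05: Slc16a1 with a difference of 0.70, Slc2a1 with 0.43, Pfkp with 0.42 and Ldhb with -0.37. The other 6 lost it: Aldoc with 0.30, Hk2 with 0.26, Pfkl with 0.19, Pdk1 with 0.17, Pgam1 with 0.14 and Taldo1 with -0.24. The SE rose for Aldoc (0.12 to 0.15), Hk2 (0.15 to 0.17), Pfkl (0.10 to 0.13), Pdk1 (0.11 to 0.13) and Taldo1 (0.11 to 0.13). For Pgam1 it fell from 0.20 to 0.15. The list mean itself differed by -1.28 between groups, so a lost call cannot tell muscle from treatment. Among members not called, the difference of Slc2a3 was 0.13 in place of 0.50, that of Ldha 0.13 in place of 0.28 and that of G6pdx 0.00 in place of 0.26. Others not called became larger in size, such as Hk1 with -1.09 in place of -0.53 and Pdk4 with 0.67 in place of 0.06. A list of 21 hypoxia genes outside metabolism, chosen with earlier results of these tumours known, had 19 measured genes, all with a positive difference (median 0.45). Its mean was 9.73, 9.39, 9.65 and 9.29 in anti-Ang2 and 8.72, 9.03, 9.27 and 9.22 in IgG replicates 1 to 4, so that the groups did not overlap and IgG replicate 1 was again lowest. The part of muscle tissue or of low oxygen in the members' values was not tested.

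**Figure D4:**
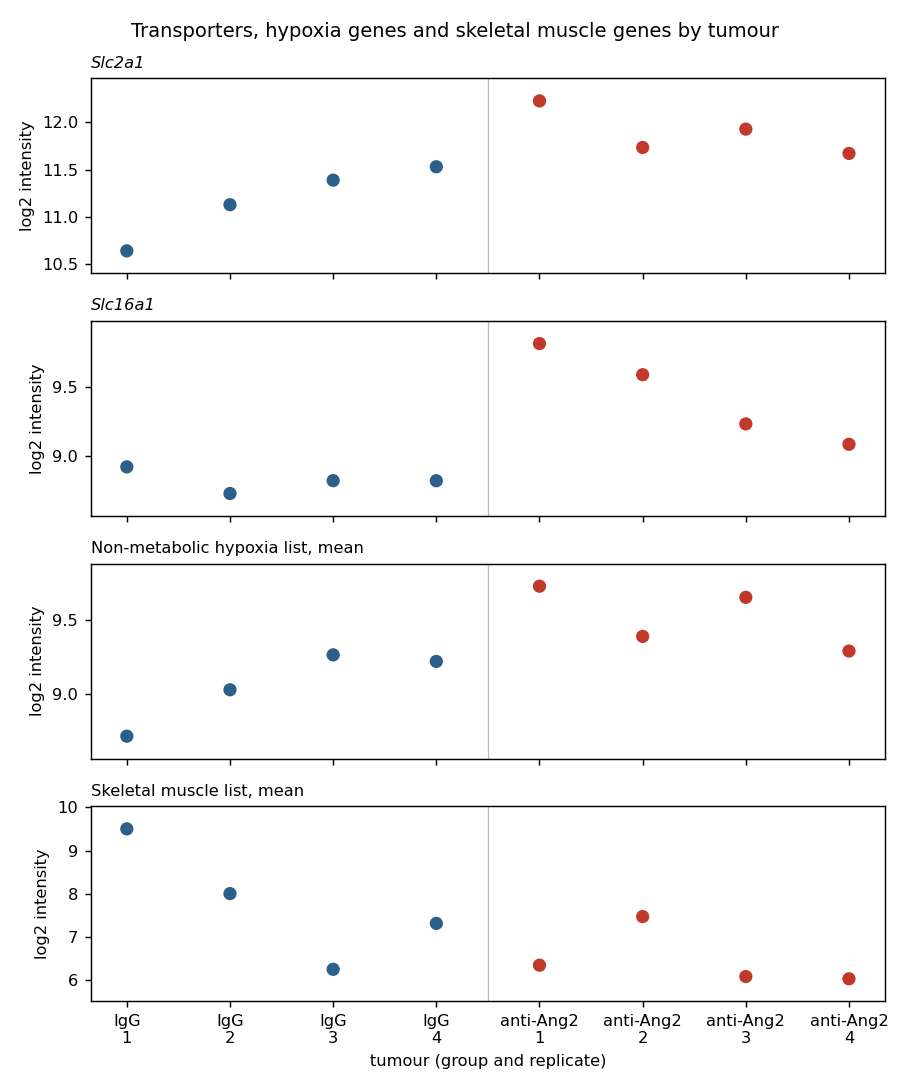
Log2 intensity of Slc2a1, of Slc16a1 and of the means of the non-metabolic hypoxia list (19 genes) and the skeletal muscle list (16 genes) in each tumour, IgG in blue and anti-Ang2 in red. IgG replicate 1 is lowest for Slc2a1 (10.64) and for the hypoxia list (8.72) and highest for muscle (9.50), whereas Slc16a1 lies between 8.73 and 8.92 in all IgG tumours.

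Lists for other cells a flank tumour can hold gave smaller shifts. Endothelial genes were higher in 7 of 10, with means of 6.71 to 7.10 in anti-Ang2 and 6.79 to 6.89 in IgG tumours, and Cldn5 and Tek were below the median gene. Keratinocyte genes were higher in 3 of 9 (5.84 to 6.00 against 5.86 to 6.38, with 7 genes below the median gene), and erythroid genes in 3 of 5 measured of 10 (5.71 to 6.09 against 5.66 to 6.10, with 4 below). Melanocyte genes were higher in 7 of 10 (11.37 to 11.50 against 10.95 to 11.61). Their means were 10.95, 11.24, 11.61 and 11.53 in IgG replicates 1 to 4. IgG replicates 1 and 2 were thus lowest, and they also had the lowest value for 17 and 9 members. The part of melanocyte signal in the members' values was not tested.

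The 55 other genes of these pathways on the fixed list were all measured. None passed adjustment over all genes (smallest limma adjusted p = 0.585), and their median difference was -0.03. At an unadjusted p under 0.05, 3 (5.45%) were higher, where 4.09% of all genes were, and 6 (10.9%) were lower, where 3.0% were. The share higher was thus near that of all genes. Groups were separate and lower for 3 of them (1.46% of all genes) and separate and higher for 0 (2.28%). Without anti-Ang2 replicate 1 the counts at that p were 1 higher and 3 lower, where 2.75% and 2.27% of all genes were. The higher count was also 1 without anti-Ang2 replicate 3 (3.63% of all genes) or IgG replicate 4 (3.51%). Mpc1, a subunit of the carrier that brings pyruvate into mitochondria, had the smallest p. It read 9.84, 9.88, 9.82 and 9.98 in anti-Ang2 and 10.09, 10.17, 10.41 and 10.15 in IgG tumours, without overlap, a difference of -0.33 (SE 0.09). Gpd1, the cytosolic glycerol phosphate dehydrogenase, differed by -0.33 (SE 0.11) and Pcx, the pyruvate carboxylase, by -0.38 (SE 0.14). G6pc3, a glucose phosphatase of most tissues, differed by 0.36 (SE 0.13). Eno3 and Pgam2, the muscle forms of enolase and phosphoglycerate mutase, differed by -1.27 (SE 0.40) and -0.54 (SE 0.22). Both were highest in IgG replicate 1, at 10.22 and 7.05, the tumour with the highest muscle list mean.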

How the data were processed

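Total RNA of 8 tumours (4 anti-Ang2, 4 IgG) had been labelled with biotin from 250 ng each for Affymetrix whole-transcript arrays, per the labels' protocols. The values that the authors deposited are normalized intensities on a linear scale, given in 2 tables that match to a relative difference of 4.94e-10. The normalization method is not given in the sources used here. Per the file headers, the deposited ratio is mean anti-Ang2 over mean IgG intensity, and the deposited p-value matches a Welch test on linear intensities. Of 24648 probe sets, 5 lacked values, 1385 named several genes and the names of 418 were not used here, which left 22840. The design had foreseen log2 values, so log2 was taken of the intensities.

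Groups were compared with limma 3.58.1 in R 4.3.3 over all 22840 genes without covariates, with Benjamini-Hochberg adjustment and intervals of 95%. The median SE was 0.108, and the number of arrays limits the precision. In 20 simulated runs of this comparison (22840 genes, 200 changed) 38.95% of differences of 0.5 and 88.5% of differences of 1 were recovered. On average 6.35 unchanged genes were called per run. Genes were simulated as independent normal values, without variation shared across genes within a tumour, so recovery in real tumours can differ. Pair values were compared by exact permutation (scipy 1.17.1). Members are described by pathway step, in full where the unadjusted p is under 0.05, the groups do not overlap or the gene belongs to a pair, and up to 6 of the other pathway genes by smallest p. Members, pairs and lists (other pathway genes, hypoxia, muscle, adipocyte, melanocyte, macrophage, neutrophil, erythroid, endothelium, keratinocyte) were chosen with earlier results of these data known. The alternatives tried were quantile normalization, median centring, a filter on dim genes, all probe sets, trend and robust eBayes, array weights, a replicate block, a muscle covariate, Welch's test and each tumour left out. The annotation text of 1977 fitted probe sets is cut short, among them those of Slc2a3, Slc2a4, Hk1, Pfkp, Pfkfb2, Pfkfb3, Pfkfb4, Eno2, Dlat and Pdp1, so further genes named on them are not known. Chromosomes are those of the array annotation, and promoter coordinates those of RefSeq.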

Additional observations from a re-analysis of the deposited data

Results flagged for a closer look

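Within-group values of each member were searched for a tumour far from the other 3, by Dixon's test at the 95% level. Of 72 groups tested, 2 had such a tumour, and chance gives about 1 in 20. Slc2a3 was 7.45 in anti-Ang2 replicate 3, where the other anti-Ang2 tumours lay between 6.35 and 6.43. Pdk3 was 8.85 in IgG replicate 1, where the other IgG tumours lay between 9.22 and 9.25.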

How the results depend on the processing

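The number of members past the adjusted threshold was 0 under every alternative run, and the median difference stayed between 0.05 and 0.10 outside the runs with a tumour left out (0.06 to 0.16 in those). Members higher at an unadjusted p under 0.05 numbered 8, where 4.09% of all genes were higher. The count was 7 with quantile normalization (3.72% of the genes fitted) or array weights (4.26%). It was 6 with median centring (3.25%), the filter on dim genes (4.37%) or Welch's test (3.02%). The 6 under Welch's test, which was run on linear intensities, were not a subset of the 8. Slc2a1, Pfkp, Pfkl and Aldoc kept the call, and Pgk1 and Pkm gained it. Slc16a1, which had the smallest limma p of the members, lost it, as did Hk2, Pgam1 and Pdk1. With the muscle covariate the count was 3 (4.04%), and with 1 tumour left out it was 4 to 9 (2.75% to 5.24%). Lower members numbered 2 on all tumours without the covariate, where 2.03% to 3.71% of the genes fitted were lower. They numbered 1 with the covariate (3.59%) and 1 to 2 with 1 tumour left out (2.18% to 3.57%). Members without overlap were 3 to 10 higher and 0 to 2 lower with 1 tumour left out. In those runs 3.40% to 5.67% of all genes were separate and higher and 2.40% to 3.26% separate and lower. After quantile normalization 3 members were higher (2.12% of all genes) and 1 lower (1.71%). With median centring 2 were higher (1.83%) and 0 lower (1.76%). Of 318 recomputed differences of 20 named members 5 changed sign, all with an adjusted p above 0.9: Pfkfb3 (-0.0090 with the covariate, -0.12 to 0.18 with 1 tumour left out), Pfkfb4 (-0.023 with the covariate) and Pdk2 (-0.070 to 0.020 with 1 left out). The other 16 members were not called in the limma fit that gave the count of 8. Of these 16, 8 changed sign with some tumour left out: Gpi1, Pfkfb1, Gapdh, Gpd1l, Pdha1, Pdhb, Dlat and Pdk4 (the last from -0.29 to 0.39). The cause was not tested. Limma on the pair values put Slc2a1 minus Slc2a4 (0.67), Pfkl minus Pfkm (0.38), Pfkp minus Pfkm (0.63), Ldha minus Ldhb (0.60) and Pdk1 minus Pdk2 (0.30) past the threshold; the covariate took this from Slc2a1 minus Slc2a4 (0.34), Pfkl minus Pfkm (0.36), Ldha minus Ldhb (0.50) and Pdk1 minus Pdk2 (0.22). With 1 tumour left out these values were 0.48 to 0.80 for Slc2a1 minus Slc2a4, 0.31 to 0.46 for Pfkl minus Pfkm, 0.45 to 0.72 for Ldha minus Ldhb, 0.23 to 0.36 for Pdk1 minus Pdk2 and 0.63 to 1.39 for Hk2 minus Hk1. The call was lost without anti-Ang2 replicate 1 for the Slc2a1, Pfkl, Ldha and Pdk1 pairs, also without anti-Ang2 replicate 2 or IgG replicate 1 for the Pfkl pair and without anti-Ang2 replicate 2 or 4 or IgG replicate 1 or 3 for the Pdk1 pair, and Hk2 minus Hk1 gained it without IgG replicate 1 (1.39). Same-numbered tumours of the 2 groups showed little common deviation (r = -0.05 to 0.08). For anti-Ang2 replicates 1 and 4 the closest IgG tumour was the same-numbered one. With 4 tumours per group such low values cannot exclude a pairing. With the replicate block 0 members passed, 8 were higher (3.96% of all genes) and 2 lower (3.22%). In that limma fit Slc2a3 minus Slc2a4 (0.46) gained an adjusted p under 0.05. Dim probe sets such as Pdk1 limit what can be read.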
